A study of Arabidopsis thaliana with 60 samples.

Results

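The LBD genes of Arabidopsis thaliana encode a plant-specific family of transcription factors named for the DNA-binding domain they share. The 35 genes described here are the nuclear protein-coding genes whose symbol in the TAIR10.1 RefSeq gene table is LBD followed by a number, out of 27432 nuclear protein-coding genes in that table. One further gene of the family was not analysed here. Another 5 LBD genes are filed in the table under other symbols (ASL9 for LBD3, ASL5 for LBD12, ASL15 for LBD17, JLO for LBD30 and ASL1 for LBD36). They were kept out of the counts and are named as such where they are described.

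The 60 libraries came from chromatin of 8-day-old seedlings, 36 of them from immunoprecipitation and 24 from input. In the single-end series, H3K27me3 and K4 trimethylation were each profiled with 2 libraries in the wild type Ler, in the loss-of-function alleles ult1-2 and ult1-3, in 35S::ULT1 (ULT1 driven by the 35S promoter), in the wild type Col-0 and in ref6-3, which lacks the H3K27me3 demethylase REF6. The submitters place ult1-2, ult1-3 and 35S::ULT1 of that series in the Ler background and ref6-3 in Col-0. In the paired-end series H3K27me3 alone was profiled in the wild type Col-0 and in ult1-3 (here in Col-0), in the PRC2 mutants swn-7 and clf-28, and in the combined mutants ult1-3 swn-7 and ult1-3 clf-28, with 1 deposited peak list a genotype. The antibody label names histone H4 for the K4 libraries while their titles say K4 only, so that mark is called K4 trimethylation. Technical immunoprecipitations from 1 nuclear extract were pooled in the single-end series. A daily light period is stated for the paired-end libraries only, so light may differ between the series. Nothing in the labels says that libraries of a genotype came from separate batches of plants, so p-values measure the spread between libraries, which may be technical. The samples are whole seedlings, and peak lists do not show whether 2 marks over a gene lie in the same cells or in different ones.

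H3K27me3 is laid down by the Polycomb repressive complex PRC2, whose catalytic subunits include CLF and SWN, and covers genes that are kept silent. REF6 removes it, and K4 trimethylation is found over transcribed genes. ULT1 is a SAND-domain protein counted among the trithorax group factors, which oppose Polycomb. Class I LBD genes act in restricted places such as organ boundaries, lateral root founder cells, cambium and pollen. The small class II acts in metabolism, and LBD37, LBD38 and LBD39 repress anthocyanin synthesis and nitrogen-responsive genes.

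The measure is the percent of the gene body under the authors' peaks, called cover. A gene counted as marked by H3K27me3 where its cover reached 50%, and by K4 trimethylation when peaks lay over at least 500 bp or at least 50% of it, whichever was less. Peaks numbered 6379 to 9945 in the single-end H3K27me3 lists, and reads inside them 8787724 to 22397140, the lowest in Col-0 library 2. The K4 lists held 15527 to 16510 peaks, and the paired-end lists 3703 (ult1-3 clf-28) to 5987 (clf-28). Depth is unknown for the paired-end lists. Lists differ in total cover as well, from 22.7 to 27.3 Mb in the single-end H3K27me3 lists and from 9.55 to 21.1 Mb in the paired-end lists.

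H3K27me3 covered more of the LBD family than of the genome at large, and K4 trimethylation less. In both Ler libraries 20 of the 35 genes were marked by H3K27me3 (57.1%), against 6963 of all 27432 genes (25.4%). In both single-end Col-0 libraries 17 were marked (48.6%), against 23% of all genes, and in the paired-end Col-0 list 15 (42.9%), against 20.7%. K4 trimethylation marked 7 LBD genes in Ler (20%) and 8 in Col-0 (22.9%), against 60.5% and 62% of all genes. These shares are descriptions without a test, and neighbouring genes can lie under 1 peak. LBD genes are also shorter than most, with a median length of 1278 bp against 2078 bp.

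**Figure D1:**
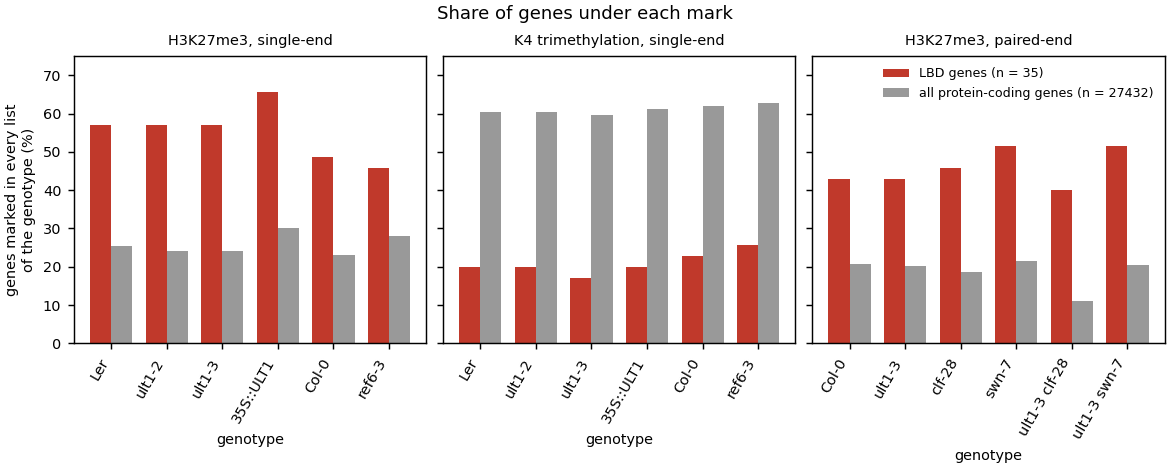
Percent of genes marked in every list of a genotype, for the 35 LBD genes (red) and all 27432 nuclear protein-coding genes (grey), in the single-end H3K27me3, single-end K4 and paired-end H3K27me3 series. The LBD share lies above the share of all genes for H3K27me3 in all 12 genotype bars and below it for K4 trimethylation in all 6.

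The 2 marks divided the family. In Ler 17 LBD genes carried H3K27me3 alone (48.6%, against 19.5% of all genes) and 5 carried K4 trimethylation alone: LBD21, LBD37, LBD38, LBD39 and LBD41 (14.3%, against 55.8%). LBD16 and LBD22 carried both, 9 genes carried neither, and for LBD4 and LBD11 the 2 K4 libraries differed. In Col-0 14 genes carried H3K27me3 alone, 6 K4 trimethylation alone (LBD4 beside the 5 of Ler), LBD16 and LBD22 both, and 9 neither. The libraries of Col-0 gave different answers for LBD1, LBD11, LBD25 and LBD26.

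A core of 13 LBD genes was marked by H3K27me3 in all 18 lists, wild type or mutant: LBD2, LBD13, LBD15, LBD16, LBD18, LBD20, LBD25, LBD28, LBD29, LBD31, LBD33, LBD40 and LBD42. That is 37.1% of the family, against 8.81% of all genes. A further 10 genes were marked in none of the 18 lists (28.6%, against 58.5%). Of these, 9 had no H3K27me3 peak over any base in any list: LBD5, LBD7, LBD8, LBD9, LBD14, LBD21, LBD23, LBD24 and LBD37. The genes without any H3K27me3 were short, with a median of 514 bp, while the 13 always marked had a median of 1601 bp. Among all genes the order was the other way round, 2335.5 bp for genes with no H3K27me3 cover and 1593 bp for those always marked. LBD5, LBD7, LBD8, LBD9, LBD14 and LBD23 also had no K4 peak in any of the 12 K4 lists, and LBD24 had at most 14.6%. LBD14, which acts in lateral root formation, lay at least 11529 bp from the nearest H3K27me3 peak in every list, and LBD5 at least 9373 bp. LBD24 and LBD37 had one within 529 and 877 bp in at least 1 list.

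**Figure D2:**
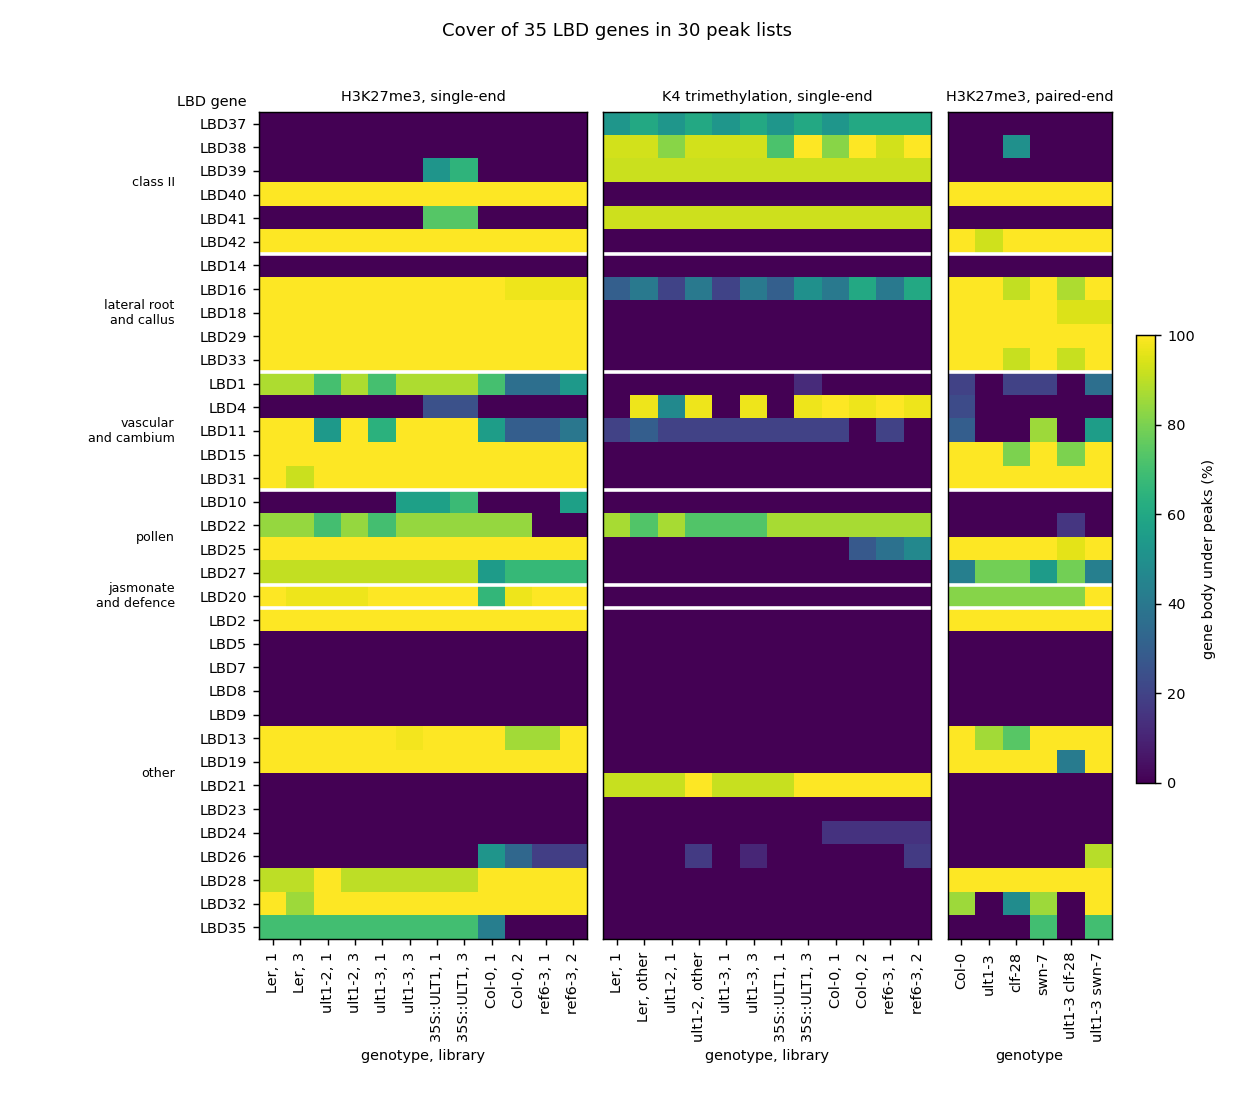
Percent of the gene body under peaks (colour, 0 to 100) for the 35 LBD genes, grouped by role, in 12 single-end H3K27me3, 12 K4 and 6 paired-end H3K27me3 lists. K4 libraries marked other are those whose list number could not be matched to a label. Most rows are uniform, LBD39 and LBD41 have H3K27me3 cover only in the 35S::ULT1 columns, and LBD22 loses its cover in ref6-3.

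By role, 4 of the 5 lateral root and callus genes were marked by H3K27me3 in Ler, 4 of 5 vascular and cambium genes, 3 of 4 pollen genes, 2 of 6 class II genes and 6 of 14 genes without an assigned role. In the same order, both single-end Col-0 libraries marked 4, 2, 3, 2 and 5 genes, and the paired-end Col-0 list 4, 2, 1, 2 and 5. The counts for the vascular and pollen groups thus depend on the wild type or series. K4 trimethylation marked 4 of the 6 class II genes in Ler, and 1 of 5, 0 of 5, 1 of 4 and 1 of 14 in the other groups.

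Class II was split between the marks. LBD40 and LBD42 had 100% H3K27me3 cover in all 12 single-end lists and no K4 peak in any K4 list. In the paired-end lists LBD40 stayed at 100% and LBD42 was at 92.7% or more. The other 4 class II genes carried K4 trimethylation in every K4 list. LBD39 had 91.8% K4 cover in all 12 lists and LBD41, which is induced by low oxygen, had 92.3% in all 12. The range for LBD37 was 52.7% to 60.2%, and for LBD38 71.5% (35S::ULT1 library 1) to 100%. None of these 4 had H3K27me3 cover in Ler, ult1-2, ult1-3, Col-0 or ref6-3.

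Both LBD39 and LBD41 gained H3K27me3 in 35S::ULT1. LBD41 (AT3G02550) had 0% H3K27me3 cover in Ler library 1 and 0% in library 3, and 73.8% in each library of 35S::ULT1. The groups did not overlap, and both libraries of ult1-2 and ult1-3 were also at 0%. The difference was 73.8 percentage points (SE 8.76; limma, Benjamini-Hochberg adjusted p = 0.00393). LBD41 entered the test only through the 35S::ULT1 libraries, the sole ones of the fit with cover above 0, and with every gene tested, whatever its cover, the limma adjusted p was 0.0119. The peak was the same in both 35S::ULT1 libraries, chromosome 3 positions 536801 to 538000 (TAIR10), touched no other protein-coding gene, and ranked at the 67.6 and 77.1 percentile of the authors' fold enrichment within its list. It lay inside a K4 peak that ran from 535401 to 538000 in all 12 K4 lists. In Ler, ult1-2 and ult1-3 the nearest H3K27me3 peak was 15300 to 16100 bp away.

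LBD39 (AT4G37540) had 0% in both Ler libraries and 52.2% and 65.2% in 35S::ULT1 libraries 1 and 3. The groups did not overlap. The difference was 58.7 points (SE 8.79; limma adjusted p = 0.00724). LBD39 too entered only through 35S::ULT1, and with every gene tested the limma adjusted p was 0.0206. The peaks were weaker than that of LBD41, at the 0.887 and 26.4 percentile of fold within their lists, and with only peaks at a q-value of at most 1e-10 the call was lost (adjusted p = 0.516). It was also lost with equal peak numbers (6920 kept in each Ler-family list), where LBD39 dropped out of the test. As deposited, the 35S::ULT1 lists held 9578 and 9945 peaks and the Ler lists 7753 and 7720.

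Gains in 35S::ULT1 were found across the genome as well. The shares that follow are not matched for starting cover. In both Ler libraries 20 of the 35 LBD genes were already marked by H3K27me3 (57.1%), against 25.4% of all genes. Such genes could not be gained by the marking rule, and genes at full cover could not rise. Whether the family gained more or less than other genes of like starting cover was not tested. The test called 2 of the 24 LBD genes tested higher in 35S::ULT1, and none lower, while it called 13% of all 11381 genes tested higher. By the marking rule, with a gain defined as marked in both libraries of 35S::ULT1 and in neither of Ler, 3 of 35 LBD genes were gained, against 4.27% of all genes. The count was 1 with equal peak numbers (LBD41), 0 at 80% cover and 0 with flanks of 500 bp added to the gene, where the shares of all genes were 2.38%, 3.01% and 3.38%. The third was LBD10 (AT2G23660), one of the LBD genes of pollen development. Its cover was 0% in both Ler libraries and 56.9% and 68.3% in 35S::ULT1, a difference of 62.6 points (SE 17; limma adjusted p = 0.0595). It missed the threshold, and a peak there also appeared in 1 library each of ult1-3 (library 3, 56.9%) and ref6-3 (library 2, 56.9%) with 0% in the other library.

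LBD4 (AT1G31320), which acts at the boundary of phloem and procambium, showed a short 400 bp peak of H3K27me3 in 35S::ULT1. Cover was 24.8% in both 35S::ULT1 libraries and 0% in every other single-end library, and the difference did not pass (limma adjusted p = 0.105). LBD4 too entered the test only through 35S::ULT1, and with every gene tested the limma adjusted p was 0.256. H3K27me3 over LBD4 was not confined to 35S::ULT1, since the paired-end wild type Col-0 list had 22.8% cover there. Each paired-end mutant list had 0% over LBD4. Its K4 cover split by library instead of genotype: 0% in library 1 and 97.3% in the other library of Ler, ult1-3 and 35S::ULT1, and 47.6% and 97.3% in ult1-2. In Col-0 and ref6-3 it was 97.3% or 100% in all 4 libraries. The SD of the 2 Ler K4 libraries was thus 68.8 points, and no genotype difference at LBD4 could be seen against it.

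**Figure D3:**
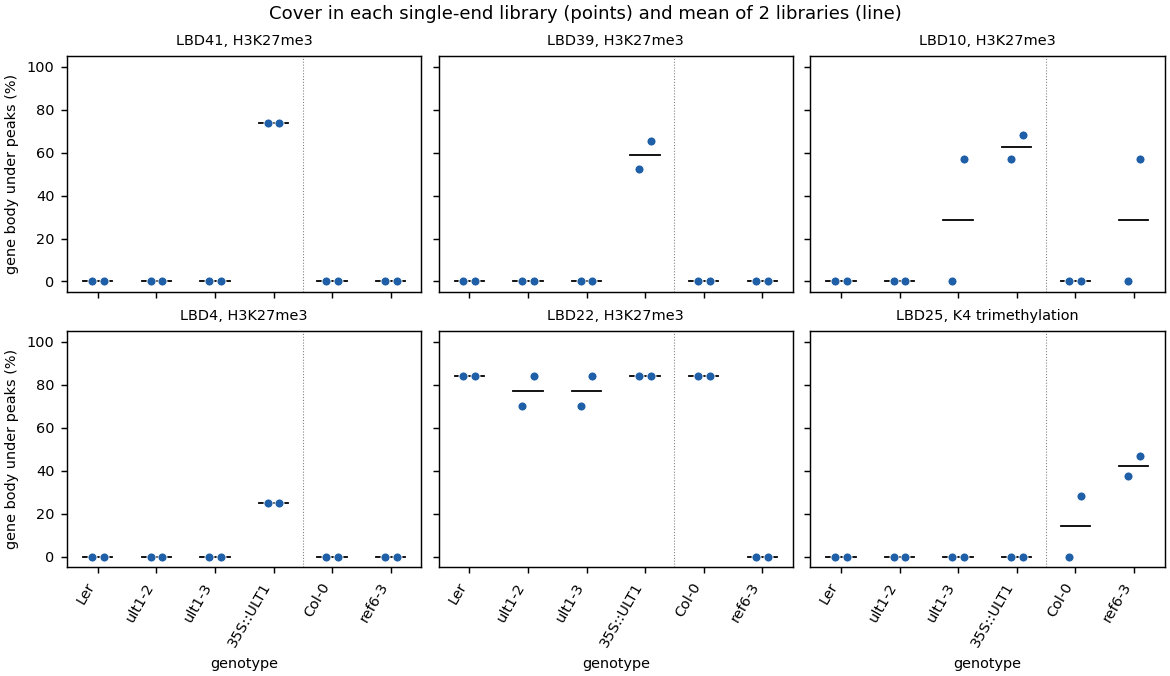
Percent of the gene body under peaks in each single-end library (points) and the mean of 2 libraries (line), by genotype, for the LBD genes with a change by either rule and LBD4. A dotted line parts the Ler family from Col-0 and ref6-3. LBD41 and LBD39 stand above 0 only in 35S::ULT1, LBD10 also in 1 library each of ult1-3 and ref6-3, and LBD22 falls from 84.3% to 0% in ref6-3.

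Loss of ULT1 in the Ler background changed no LBD gene by either rule. For H3K27me3, 0 of 24 LBD genes tested passed limma in ult1-2 and 0 of 24 in ult1-3, with 0 at an unadjusted p under 0.05 in each. Few genes of any kind passed there, 0.0615% and 0.176% of all genes tested. The marking rule gave 0 of 35 for either allele, against 0.981% of all genes gained or lost in ult1-2 and 0.795% in ult1-3. LBD11, which promotes cambium activity, shifted in 1 library of each allele. It was at 100% in both Ler libraries, 54.1% and 100% in ult1-2, and 64% and 100% in ult1-3. In both alleles only library 1 was low. Cover of LBD1, a close relative, was 87.6% in both Ler libraries and 70.6% and 87.6% in each allele.

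K4 trimethylation of the family differed little between the genotypes of the Ler family. Of 11 LBD genes tested, limma called 0 in 35S::ULT1, 0 in ult1-3 and 0 in ult1-2, none of them at an unadjusted p under 0.05. The shares of all 18889 genes tested were 0.0159%, 0.0212% and 0%. The marking rule gave 0 of 35 in each comparison, against 0.262% (ult1-2), 0.488% (ult1-3) and 0.335% (35S::ULT1) of all genes.

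In ref6-3, where 1544 genes of all kinds passed as higher in H3K27me3 and 173 as lower, the single LBD gene to pass fell. LBD22 (AT3G13850), one of the LBD genes of pollen development, had 84.3% H3K27me3 cover in each Col-0 library and 0% in each ref6-3 library. The groups did not overlap, and the difference was -84.3 points (SE 12.9; limma adjusted p = 6.87e-04). LBD22 entered the test only through the Col-0 libraries, and with every gene tested the limma adjusted p was 1.01e-04. LBD22 was the 1 of 22 LBD genes tested that was lower, against 1.69% of all 10243 genes tested. The marking rule lost 1 of 35, against 0.773%. No LBD gene passed as higher, against 15.1% of all genes tested, though LBD10 and LBD20 did with flanks of 500 bp added. Genes at full cover in Col-0 could not rise. In both Col-0 libraries 17 of the 35 LBD genes were already marked (48.6%), against 23% of all genes, and the shares were not matched for this. Calls from the 4-library fit of Col-0 and ref6-3 are less firm than their adjusted p, since that fit called too many unchanged genes in simulated data.

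The H3K27me3 peak of LBD22 was a weak one in Col-0. It covered chromosome 3 positions 4558801 to 4560800 in Col-0 library 1 and 4559001 to 4560800 in library 2, at the 12.5 and 0.69 percentile of the authors' fold within the lists. With only peaks at a q-value of at most 1e-10 the call was lost (difference -42.2 points, adjusted p = 0.813). The nearest H3K27me3 peak in ref6-3 was 3619 bp away in library 1 and 3419 bp in library 2. Reads inside peaks numbered 18013808 and 8787724 in the Col-0 libraries and 11326202 and 19606518 in ref6-3. Reads inside peaks are not the sequencing depth, and the part of depth in the loss was not tested. The paired-end Col-0 list had no H3K27me3 over LBD22 either. K4 cover of LBD22 was 87% in all 4 Col-0 and ref6-3 libraries. In the Ler family the gene had 70% to 84.3% H3K27me3 cover and 72.8% to 87% K4 cover in every library.

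LBD25 (AT3G27650), which takes part in auxin responses, was the 1 of 12 LBD genes tested that passed for K4 trimethylation in ref6-3, against 0.695% of all 18561 genes tested that were higher. K4 cover was 0% and 28.1% in Col-0 libraries 1 and 2, and 37.5% and 46.8% in ref6-3. The groups did not overlap, but the Col-0 libraries differed by as much as the genotypes did. The difference of 28.1 points has an SE of 5.92 in the fit (limma adjusted p = 3.17e-04), in which the spread is shrunk towards that of other genes, while the SD of the 2 Col-0 libraries was 19.9. The call was lost without Col-0 library 1 (adjusted p = 1), without ref6-3 library 2 (0.32), without the floor on the spread (0.973) and with stricter peaks (1). A fit blocked on library number lost it as well (0.0523). The peak also ranked at the 4.72 percentile of fold or lower in each list that held it. By the marking rule 0 of 35 LBD genes changed in K4 trimethylation in ref6-3, against 0.649% of all genes. H3K27me3 cover of LBD25 was 100% in all 12 single-end lists.

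Of the lateral root and callus genes counted here, all but LBD14 were marked by H3K27me3 in all 18 lists. LBD16, LBD18, LBD29 and LBD33 act downstream of the auxin response factors ARF7 and ARF19, and LBD16, LBD18 and LBD29, with LBD17, also drive callus formation. LBD18, LBD29 and LBD33 had 100% cover in all 12 single-end lists, without K4 peaks. LBD16 had 97.6% or more, and beside it a K4 peak of 400 to 1200 bp in each of the 12 K4 lists, with cover from 20.2% (library 1 of ult1-2 and of ult1-3) to 60.5% (library 2 of Col-0 and of ref6-3). That K4 peak ranked between the 2.86 and 22.5 percentile of fold within the lists. ASL15 (LBD17), outside the count and a neighbour of LBD16 on chromosome 2, had 100% H3K27me3 cover in all 12 single-end lists and no K4 peak. In the paired-end ult1-3 clf-28 list its cover was 0%.

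Among the vascular genes, LBD15 and LBD31 had at least 91.9% H3K27me3 cover in all 12 single-end lists. JLO (LBD30), which acts with LBD18 in xylem formation, lay under the same peak as LBD31 in all 12, 9400 to 9600 bp long on chromosome 4. In the paired-end Col-0 list the pair shared a peak of 6600 bp from 85401 to 92000. In clf-28 it was split, with 1 peak of 3600 bp from 85001 to 88600 over LBD31 and another of 3400 bp from 89601 to 93000 over JLO, and in ult1-3 clf-28 it was split likewise. LBD1 and LBD11 were marked in both Ler libraries but only in library 1 of Col-0. LBD1 had 70.6% and 36.6% in Col-0 libraries 1 and 2, and 36.6% and 53.6% in ref6-3. LBD11 had 55.8% and 29.7% in Col-0, and 29.7% and 39.6% in ref6-3. Neither passed in ref6-3 (limma adjusted p = 1 for each).

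LBD20, which acts in jasmonate signalling and in susceptibility to Fusarium, was marked in all 18 H3K27me3 lists, with its lowest single-end cover in Col-0 library 1 (66%). Among the genes placed in no role group, LBD2 had 100% in all 18, LBD13 86.2% or more and LBD28 90.2% or more in the single-end lists. LBD21 stood apart from them with 91.5% to 100% K4 cover in all 12 K4 lists and no H3K27me3.

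Some LBD genes had other levels in Col-0 than in Ler, a difference that was not tested since the families were fitted apart. LBD35 had 69.7% H3K27me3 cover in all 8 Ler-family libraries, 42.8% and 0% in Col-0 and 0% in both ref6-3 libraries. It was the 1 LBD gene marked in both Ler libraries and in neither of Col-0, which held for 2.38% of all genes. LBD26 had 0% in all 8 Ler-family libraries, 52% and 33.4% in Col-0 and 18.6% in both ref6-3 libraries. LBD27, needed for the asymmetric division in pollen, had 90.8% in all 8, 55% and 66.9% in Col-0 and 66.9% in both ref6-3 libraries. The wild types of the 2 series were close: of 17 LBD genes marked in both single-end Col-0 libraries 15 were marked in the paired-end Col-0 list (88.2%, against 79.6% of all genes), LBD22 and LBD27 being the others.

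The paired-end lists, with 1 list a genotype and no test, showed the family when PRC2 subunits were missing. Of the 15 LBD genes marked in Col-0, 14 were still marked in clf-28 (93.3%), against 70.7% of the 5680 genes of all kinds marked in Col-0. In ult1-3 clf-28, 13 remained marked (86.7%), against 49.2%. In swn-7 and ult1-3 swn-7 all 15 remained, against 91.8% and 88.5%, and in ult1-3 14 did, against 86.2%. The LBD genes started from fuller cover. In the Col-0 list peaks covered the whole gene body of 13 of the 15 (86.7%), against 56.6% of the 5680 genes. The shares still marked were not matched for this starting cover, and its part in the difference between them was not tested.

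The peaks over these genes were shorter in clf-28 and ult1-3 clf-28, as were those of all genes. Peaks touching the 15 genes had a median length of 5000 bp in Col-0, 3600 bp in ult1-3, 1800 bp in clf-28 and 1800 bp in ult1-3 clf-28. The medians of all genes marked in Col-0 were 4200, 3600, 2000 and 1200 bp. The median share of the Col-0 length left in ult1-3 clf-28 was 60.6% for the LBD genes and 25% for all genes. They were shorter than in Col-0 over 12 of 15 genes in clf-28 and 14 of 15 in ult1-3 clf-28 (80% and 93.3%, against 78.6% and 87.7% of all genes marked in Col-0). The ult1-3 list gave 11 of 15 shorter (73.3%, against 51.1%). In swn-7 the median was 4800 bp and in ult1-3 swn-7 6800 bp, with 9 of 15 genes under longer peaks in each (60%, against 47.8% and 53.5%). LBD18 and LBD19, neighbours under 1 peak of 11000 bp in Col-0, had peaks of 9200 bp in ult1-3, 11600 bp in swn-7 and 10000 bp in ult1-3 swn-7. In clf-28 their peaks measured 3400 and 3200 bp, and in ult1-3 clf-28 3200 and 2600 bp. LBD29 went from 4800 bp in Col-0 to 1400 bp in clf-28 and 1400 bp in ult1-3 clf-28, while its gene body stayed at 100%. LBD2 changed little, from 1800 bp to 2600 bp over the 6 lists.

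**Figure D4:**
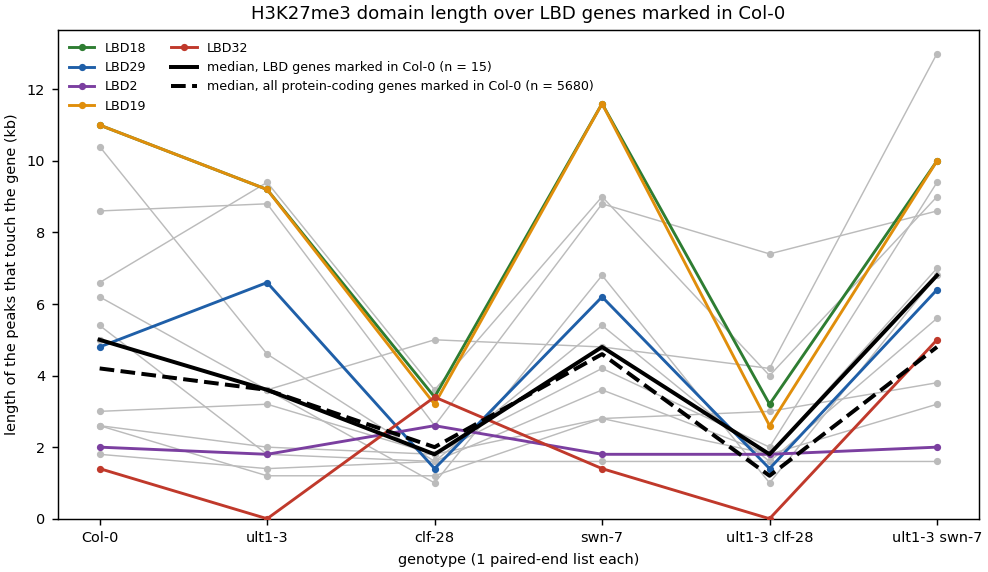
Total length in kb of the H3K27me3 peaks touching each of the 15 LBD genes marked in the paired-end Col-0 list (thin lines, 5 of them coloured), with the median of the 15 (solid black) and of all 5680 genes marked in Col-0 (dashed black). The LBD median falls from 5000 bp in Col-0 to 1800 bp in clf-28 and in ult1-3 clf-28 and is 6800 bp in ult1-3 swn-7.

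A few LBD genes lost their mark in the paired-end mutants, counted where a marked gene became unmarked with a fall of at least 50 points. LBD32 (AT4G22700) had 85.4% cover in Col-0 and in swn-7, 48.5% in clf-28 and 100% in ult1-3 swn-7. Cover was 0% in ult1-3 and in ult1-3 clf-28. It was thus without cover in 2 of the 3 lists that carry ult1-3. LBD19 (AT2G45410) was at 100% in 5 lists and at 41.4% in ult1-3 clf-28. The counts were 1 of 35 lost in ult1-3 against 2.33% of all genes, 0 in clf-28 against 5.39%, and 0 in swn-7 against 1.28%. In ult1-3 clf-28, 2 of 35 were lost against 10% of all genes, and in ult1-3 swn-7 0 against 1.8%. Outside the count, ASL9 (LBD3), induced by cytokinin, and ASL15 (LBD17) fell from 100% in Col-0 to 0% in ult1-3 clf-28, with 91.8% and 79.2% in clf-28.

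In the single-end Ler family LBD32 had 85.4% to 100% H3K27me3 cover in every library, ult1-3 included. The paired-end ult1-3 list is in the Col-0 background, so background and series cannot be told apart here. The Col-0 peak of LBD32 was also weak, at the 8.46 percentile of the deposited score per bp within its list.

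Gains by the same measure were also few. They numbered 0 of 35 in ult1-3 against 1.84% of all genes, 1 in clf-28 against 3.43%, and 2 in swn-7 against 1.78%. In ult1-3 clf-28 there were 0 against 0.787%, and in ult1-3 swn-7 2 against 1.64%. The gain in clf-28 was LBD38 (AT3G49940), at 50.1% there and 0% in the other 5 lists, under a peak at the 1.2 percentile of score per bp. LBD35 had 69.7% in swn-7 and in ult1-3 swn-7 and 0% in the others. LBD11 had 85.5% in swn-7 and 55.8% in ult1-3 swn-7, with 29.7% in Col-0 and 0% in the other 3 lists. LBD26 was at 89.2% in ult1-3 swn-7 and 0% in the others. LBD27 stood at 43% in Col-0 and ult1-3 swn-7, 55% in swn-7 and 78.9% in ult1-3, clf-28 and ult1-3 clf-28. In the single-end series Col-0 libraries 1 and 2 had 42.8% and 0% over LBD35, 55.8% and 29.7% over LBD11, and 52% and 33.4% over LBD26. These genes were thus not free of H3K27me3 in every wild type list.

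Genes that act with the LBD genes were followed as a list of 27 partners, of which 16 were marked by H3K27me3 in Ler and 14 in Col-0. Against Ler, 0 of the 19 tested passed limma for H3K27me3 in any of the 3 genotypes, where 0.0615% (ult1-2), 0.176% (ult1-3) and 13.5% (35S::ULT1) of all genes tested did. In ref6-3, 2 of 19 passed as higher and 2 as lower, against 15.1% and 1.69% of all genes tested. EXPA17, an expansin gene that LBD18 activates, had 0% H3K27me3 cover in both Col-0 and 100% in both ref6-3 libraries (limma adjusted p = 4.49e-04). GATA23, an early gene of lateral root founder cells, had 0% in both Col-0 and 74.3% in both ref6-3 libraries (limma adjusted p = 0.00332). EXPA17 and GATA23 entered the test only through ref6-3, and with every gene tested their limma adjusted p were 2.09e-05 and 7.52e-04. IAA28, an auxin repressor upstream of GATA23, had 82.6% and 62% in Col-0 and 0% in both ref6-3 libraries (adjusted p = 0.00173). VND6, a xylem regulator, had 86.7% and 42% in Col-0 and 0% in both ref6-3 libraries (adjusted p = 0.0204), a call lost without Col-0 library 1 (0.134) without either ref6-3 library (0.06 and 0.0681), with stricter peaks (0.813) and without the floor on the spread (0.312). IAA28 and VND6 entered the test only through Col-0, and with every gene tested their limma adjusted p were 5.96e-04 and 0.0107. For K4 trimethylation 0 of the 17 (Ler family) or 16 (ref6-3) partners tested passed, against at most 1.14% of all genes tested. NIA1, a nitrate reductase gene that LBD37 to LBD39 repress, had 97.8% H3K27me3 cover in both Ler libraries and 63.8% and 65.9% in ult1-2, without passing (limma adjusted p = 0.246).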

How the data were processed

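Peak lists were analysed for 24 single-end ChIP libraries and 6 paired-end genotypes. Input libraries entered through the authors' lists only. Per the labels, chromatin from 8-day-old seedlings was immunoprecipitated. The submitters' processing notes name CASAVA 1.8.2, BWA (0.6.2-r126 and 0.7.17-r1188), SAMtools (0.1.19 and 1.16.1), Picard (1.93 and 2.26.10), bedtools (2.17.0-97 and 2.30.0), SICER 1.1 and the build TAIR10. Each single-end list, as the authors deposited it, gives per peak a count of ChIP reads, a fold over input and a q-value, at most 9.99e-05 in these lists. The paired-end lists as deposited give only a score per peak, and the sources used here do not say how libraries of a genotype were combined. A further 48 columns of values were not used.

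Percent of gene body under peaks was computed in Python 3.11.15 (numpy 2.4.6, pandas 2.3.3) for 27432 nuclear protein-coding genes of the TAIR10.1 RefSeq table. No shift in 100-bp steps between gene table and peaks gave more overlap than 0 on any chromosome. Fits used limma 3.58.1 (R 4.3.3; trend, robust) over genes with cover above 0 in at least 1 library of the fit, with 8 libraries for the Ler family and 4 for Col-0 and ref6-3. The residual SD was not allowed below that of 2 libraries differing by 1 window of 200 bp. P-values are two-sided and Benjamini-Hochberg adjusted over all genes tested, with the threshold 0.05. The fit was tested on simulated data, where the 4-library fits called unchanged genes more often than the threshold allows, so calls in ref6-3 are less firm than their adjusted p. Standard errors and p-values cover only the 2 libraries a genotype, and peak edges limit precision to 1 window. K4 lists of Ler and ult1-2 without a matching number were assigned to the genotype only.

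Named were LBD genes called by either rule or changed in a paired-end list, those of known role and partners that passed. Role groups, partners and members were chosen with earlier results of these data known. Alternatives were other cover thresholds, peaks at a q-value of at most 1e-10, equal peak numbers, flanks of 500 bp, no floor, other low-cover filters, a library block and leaving out each library. No sequence is shown, since no genome was used.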

Additional observations from a re-analysis of the deposited data

How the results depend on the processing

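Of 72 alternatives to the counts of changed LBD genes by the marking rule 54 stayed within 1.5 times the reported count. So did 76 of 88 alternatives to the counts passing limma. None reversed, but a comparison with no LBD gene called could not reverse, and counted as stable if the alternative called none. Where the rule called LBD genes for H3K27me3, 6 held and 3 moved in 35S::ULT1, and 5 and 4 in ref6-3. For limma and H3K27me3, 8 held and 3 moved in 35S::ULT1, and 7 and 4 in ref6-3. For limma and K4 trimethylation in ref6-3, 6 held and 5 moved. Every one of the 72 single-end and 24 paired-end alternatives to the counts of marked genes stayed within 1.5 times the reported count. With stricter peaks (q-value at most 1e-10) the LBD genes passing limma for H3K27me3 fell from 2 to 1 in 35S::ULT1 and from 1 to 0 in ref6-3, those lost by the rule in ref6-3 from 1 to 0, and those passing for K4 trimethylation in ref6-3 from 1 to 0. With equal peak numbers 1 passed in 35S::ULT1 and 2 in ref6-3 (LBD26 joined), and the rule gained 1 in 35S::ULT1 (LBD41). With 500 bp flanks 4 passed in 35S::ULT1, all higher (LBD4, LBD10 at adjusted p = 0.0211, LBD39 and LBD41), and the rule gained 0 there. In ref6-3 these flanks gave 4, LBD10 and LBD20 higher (18.1 and 32.2 points) and LBD22 and LBD26 lower (-70 and -30.3 points). At 80% cover the rule gained 0 in 35S::ULT1, and for K4 trimethylation (800 bp) 1 was gained in ref6-3 (LBD25), against 1.31% of all genes. At 20% 2 were lost in ref6-3 (LBD22 and LBD26), against 0.711% of all genes. For limma the shares of all genes under these other settings are not given here, so those counts say nothing particular to the family. Without the floor 0 passed for K4 trimethylation in ref6-3, and the adjusted p was 0.0687 for IAA28 and 0.312 for VND6. That of LBD4 in 35S::ULT1 (6.74e-13) is void, since its cover did not vary within a genotype. The cause of these changes was not tested.

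Leaving out 1 library, with the lone library of that genotype assumed to vary like the others, gave 1 to 2 LBD genes passing for H3K27me3 in ref6-3 (LBD10 joined without ref6-3 library 1) and 0 to 1 for K4 trimethylation in ref6-3. By the rule it gave 0 to 1 for H3K27me3 in ult1-3 (LBD10 gained without ult1-3 library 1, against 0.744% of all genes). In ref6-3 it gave 1 to 3. LBD11 and LBD26 joined as lost without Col-0 library 2, against 1.38% of all genes lost. LBD10 joined as gained without ref6-3 library 1, against 5.97% gained. For K4 trimethylation in ult1-2 the rule gave a different gene for each library left out. LBD11 was lost without Ler library 1 and LBD16 without the other ult1-2 library, against 0.656% and 0.9% of all genes. LBD4 was gained without the other Ler library and LBD26 without ult1-2 library 1, against 0.802% and 0.627%. In ult1-3, 35S::ULT1 and ref6-3 the rule gave 0 to 1. In ult1-3 LBD11 was lost without Ler library 1 and LBD16 without ult1-3 library 3, against 0.82% and 1.56% of all genes. In 35S::ULT1 LBD11 was lost without Ler library 1, against 0.346%. In ref6-3 LBD25 was gained without Col-0 library 2 and LBD26 without ref6-3 library 1, against 0.937% and 1.11%.

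With the library number as a replicate block, 0 LBD genes passed for K4 trimethylation in ref6-3 (LBD25, adjusted p = 0.0523) and 3 for H3K27me3 in 35S::ULT1 (LBD10, adjusted p = 0.0452), with no other change in a call of an LBD gene. The labels do not say that the numbers pair libraries. Deviations of same-numbered libraries correlated at -0.01 to 0.10 for H3K27me3 and 0.33 to 0.53 for K4 trimethylation. A gene without a peak is below the authors' threshold, which does not show that the mark is absent, and the part of depth in this was not tested.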
